A study of Mus musculus with 8 samples.

Results

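Lysosome and autophagy genes were followed in cultured mouse spermatogonia, the mitotic germ cells of the testis, after retinoic acid (RA), nutrient restriction (NR) or both (NRRA). The set held 52 genes, listed by their symbol. They were the *Tfeb* family of transcription factors, the hydrolases and membrane proteins of the lysosome, and the core genes of autophagy. The set and the other gene lists below were chosen with earlier results of these data known. All 52 were found among the 55421 genes of the count table. After a filter on low counts 51 of them were among the 20477 genes tested, and the one left out was *Atp6v0d2*, which had 1 to 6 counts per library.

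Testes of 6-day-old C57BL/6XDBA/2 pups were the source of the cultures, which were kept on a layer of mitotically arrested mouse embryonic fibroblasts (MEF feeder cells), which all groups shared. Each group was treated for 48 h. The vehicle control (Veh) stayed in complete medium, and the RA group received 100 nM RA in complete medium. The NR group was kept in 10% complete medium and 90% Earle's balanced salt solution (EBSS), which lacks amino acids, and the NRRA group in the same diluted medium with 100 nM RA. RNA of the whole culture was sequenced in 2 libraries per group, described as independent biological replicates, so the test rests on 2 libraries against 2 with a spread estimated over all 8.

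Total counts per library lay between 19261333 and 30023585. Levels are given as CPM, counts of a gene per 1000000 counts of its library after TMM scaling, and a level of 1 CPM stood for 19.2 to 31.1 reads. The 6 germ cell markers, *Ddx4* and *Dazl* among them, were detected in all libraries and summed to between 718 CPM in Veh and 949 CPM in NR. The 15 fibroblast markers of the feeder layer were also detected in all libraries. They summed to 24870 and 25300 CPM for Veh, 20960 and 19520 for RA, 42260 and 44030 for NR, and 33100 and 32170 for NRRA. Of these 15, 11 fell and 1 rose in RA, and 13 rose and 1 fell in NR, both against Veh (edgeR, adjusted p under 0.05). In NRRA vs Veh, 10 rose and 5 fell. Of all tested genes, 23.4% fell in RA and 21.7% rose in NR. *S100a4*, by which the study identified the feeder cells, read 3.2 and 3.1 CPM for Veh and 2.0 and 2.0 for RA. It read 1.9 and 1.6 for NR, and 0.46 and 0.77 for NRRA. In such bulk samples fewer cells of a type and less RNA per cell cannot be told apart, and the part of the feeder cells in the results below was not tested.

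Lysosomes are acidic organelles in which hydrolases degrade proteins, lipids, glycans and nucleic acids. In autophagy, a membrane grows around a portion of cytoplasm, closes into an autophagosome and fuses with the lysosome, so that starved cells recover amino acids and other building blocks. TFEB, TFE3 and MITF are related transcription factors that bind E-box motifs in the promoters of lysosomal and autophagy genes; when nutrients are plentiful the kinase complex mTORC1, active at the lysosome surface through the Rag GTPases, keeps them in the cytoplasm. Much of this control acts on protein location and phosphorylation, which RNA-seq does not measure.

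Promoter sequences are shown first, since the *Tfeb* family binds E-boxes in promoters of lysosomal and autophagy genes. Binding to the genes of the set was not measured. RefSeq start sites gave a window of 300 bases (250 before the start and 50 after) for 43 of the 52 genes on GRCm38.p6. The core letters CACGTG, which read the same on both strands, occurred in the window of 15 of the 43 genes (34.9%), against 8.09% of the 27025 genes with a window. The longer form TCACGTGA, which contains those letters, occurred in 7 of the 43 (16.3%) against 1.12% of all genes. These 7 are printed 5′ to 3′ along the gene's own strand, around 1 match each, with TCACGTGA in capitals.
*Atg3*, chr16:45158730-45158791, plus strand: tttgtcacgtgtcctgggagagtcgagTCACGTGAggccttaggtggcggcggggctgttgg
*Atp6v0d1*, chr8:105566034-105566095, minus strand: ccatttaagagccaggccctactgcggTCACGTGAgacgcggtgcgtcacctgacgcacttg
*Atp6v1a*, chr16:44139357-44139418, minus strand: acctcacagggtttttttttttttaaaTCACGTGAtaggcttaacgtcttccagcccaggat
*Ctsa*, chr2:164833733-164833794, plus strand: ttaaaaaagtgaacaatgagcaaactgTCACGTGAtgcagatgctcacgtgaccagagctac
*Ctsd*, chr7:142387892-142387953, minus strand: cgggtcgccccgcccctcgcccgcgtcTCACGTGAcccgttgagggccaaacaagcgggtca
*Gla*, chrX:134601166-134601227, minus strand: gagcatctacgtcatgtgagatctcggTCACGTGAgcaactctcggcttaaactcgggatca
*Mcoln1*, chr8:3500446-3500507, plus strand: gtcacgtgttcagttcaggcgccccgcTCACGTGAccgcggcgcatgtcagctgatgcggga

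*Ctsf* and *Ctsl*, the cathepsin genes that changed most under nutrient restriction and in opposite directions, both carried the shorter CACGTG, shown in capitals.
*Ctsf*, chr19:4855059-4855118, plus strand: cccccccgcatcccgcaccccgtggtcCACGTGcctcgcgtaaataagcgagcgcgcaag
*Ctsl*, chr13:64370724-64370770, minus strand: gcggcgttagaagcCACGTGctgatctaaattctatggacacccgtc
The match began 79 bases before the RefSeq start of *Ctsf* and 236 bases before that of *Ctsl*. A match is a description of the letters and not a measured binding site. Of the 15 genes with CACGTG, 3 rose and 6 fell in NR vs Veh, 0 rose and 10 fell in RA vs Veh, and 2 rose and 11 fell in NRRA vs Veh. The shares that fell were 40%, 66.7% and 73.3%, where 22.2%, 23.4% and 28.7% of all tested genes and 37.3%, 62.7% and 60.8% of the whole set did, and the 20% that rose in NR lay near the 21.7% of all genes.

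More genes of the set fell than rose in RA and in NRRA against Veh, and by a smaller margin in NR, and the median of the set was below 0 in all 3 under every scaling tried. In RA vs Veh, which asks what RA did in complete medium, 32 of the 51 tested genes fell and 5 rose (edgeR, adjusted p under 0.05), where 23.4% of all tested genes fell and 19.8% rose. Without RA replicate 1, 3 rose. In NR vs Veh, which asks what the diluted medium alone did, 19 fell and 12 rose, against 22.2% and 21.7% of all genes. The 12 that rose are 23.5% of the set, close to the share over all genes, while the 19 that fell are 37.3%. The lead of falls over rises in NR was gone without NR replicate 2 and without Veh replicate 1. The median log2 fold change of the set still lay below that of all genes there (-0.06 against 0.022, and -0.068 against 0.032). In NRRA vs Veh, 31 fell and 9 rose, against 28.7% and 30.1% of all genes. These 3 comparisons share the Veh libraries. Scaled by library totals in place of TMM, the median of all genes in NRRA vs Veh moved from 0.03 to 0.143 on the log2 scale, and 21 genes of the set fell and 16 rose there, against 4488 and 7668 of all genes.

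The changes were small. The median log2 fold change of the set lay at -0.203 in RA, -0.09 in NR and -0.186 in NRRA, where it was -0.019, 0.006 and 0.03 over all tested genes. A change of at least 2-fold was called for 1 gene in RA (*Rragd*, down), for 2 in NR (*Tfeb* and *Ctsl*, down) and for 3 in NRRA (these 3 genes, down), and for no gene upwards. Over all genes the share called at least 2-fold in either direction came to 7.49% in RA, 8.29% in NR and 15.9% in NRRA. Summed over the 52 genes, the level was 10981 and 10896 CPM in the Veh libraries, 9626 and 9261 for RA, 9355 and 9398 for NR, and 9023 and 9102 for NRRA. Without *Ctsl*, sums were 8851 and 8649 for Veh, 7807 and 7500 for RA, 8355 and 8385 for NR, and 8009 and 8046 for NRRA. On the TMM scale the treated libraries were thus still below both Veh libraries. Sums scaled by library totals were not taken. By the group means, 27 of the 51 genes were highest in Veh, 13 in NR, 8 in NRRA and 3 in RA. The shares of all tested genes that were highest in each group were not counted.

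**Figure D1:**
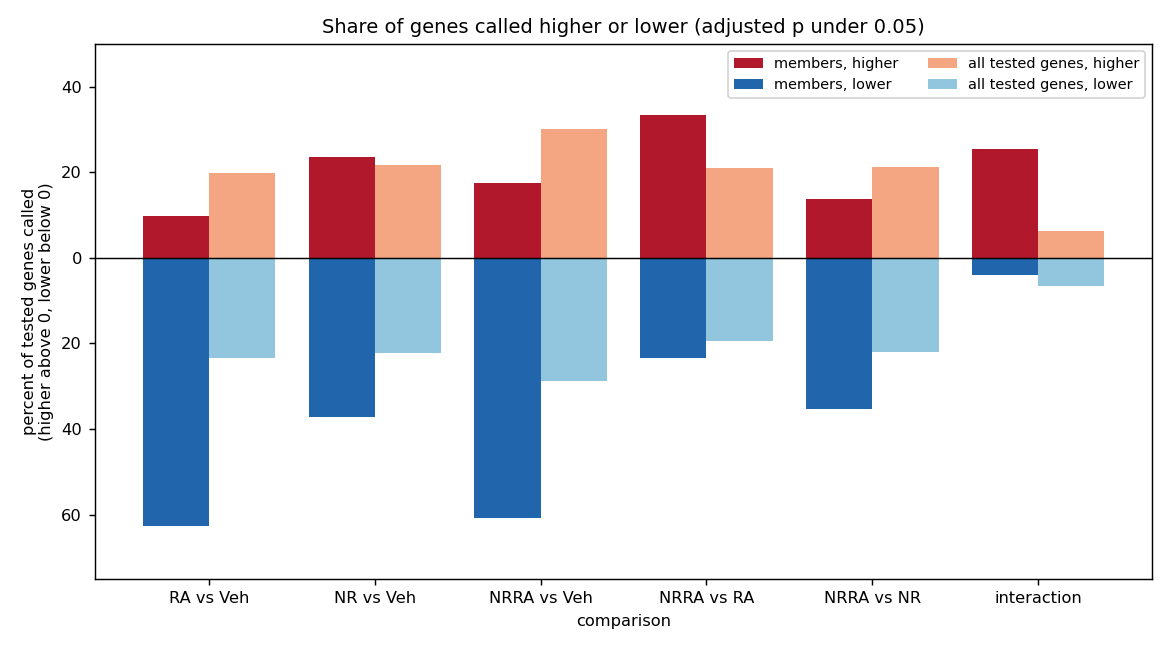
Percent of the 51 tested lysosome and autophagy genes (dark bars) and of all 20477 tested genes (light bars) called higher (above 0) or lower (below 0) at an adjusted p under 0.05 in each comparison. The dark bars reach 62.7% lower in RA vs Veh and 60.8% lower in NRRA vs Veh, below the light bars of 23.4% and 28.7%.

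Adding NR to RA, and RA to NR, split the set in different ways. In NRRA vs RA, which asks what nutrient restriction did in cells given RA, 17 genes rose and 12 fell, where 20.9% and 19.4% of all genes did. In NRRA vs NR, which asks what RA did in restricted cells, 7 rose and 18 fell, where 21.3% and 22.1% did. At 2-fold or more, 0 genes of the set were called in NRRA vs RA (8.29% of all genes) and 1 in NRRA vs NR (*Rragd*, down, with 8.7% of all genes). The 7 genes that rose in NRRA vs NR became 3 without NR replicate 1, 3 without NR replicate 2 and 4 without NRRA replicate 2. Scaled by library totals, NRRA vs NR gave 13 that rose and 12 that fell, and DESeq2 gave 3 and 17.

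Over the 3 comparisons with Veh, 12 genes fell in all: *Tfeb*, *Tfe3*, *Lamp1*, *Ctsl*, *Ctsz*, *Gusb*, *Psap*, *Sqstm1*, *Uvrag*, *Atg7*, *Wipi2* and *Rragc*. The NR call of 5 of them was lost when 1 library was left out: that of *Lamp1* without NR replicate 2, of *Rragc* without NR replicate 1, of *Uvrag* without NR replicate 2 or Veh replicate 1, and of *Ctsz* and *Psap* without any of several libraries (adjusted p up to 0.227 and 0.176), and that of *Rragc* in RA was lost without RA replicate 2. Only *Ulk2* and *Rb1cc1* rose in all 3. A further 10 fell in RA and in NRRA without passing the test in NR. For 3 genes, *Neu1*, *Becn1* and *Atg9a*, no comparison with Veh passed. How many of all tested genes had each of these patterns was not counted, and the 3 comparisons share the Veh libraries.

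**Figure D2:**
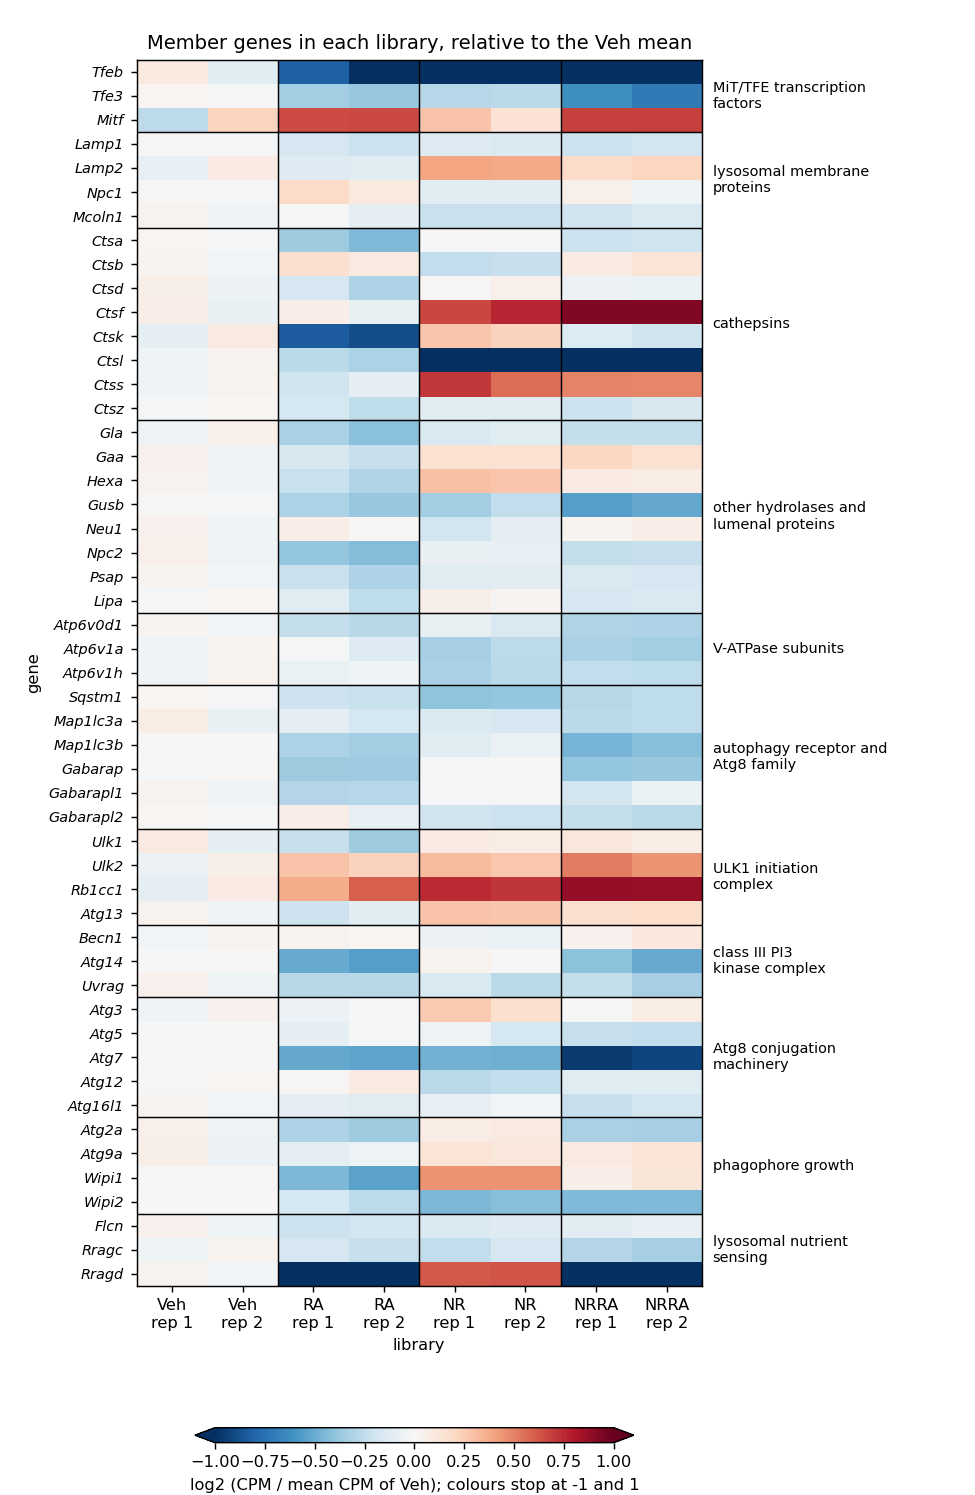
Level of each tested lysosome and autophagy gene (rows, grouped by role) in each of the 8 libraries (columns), as log2 of its CPM over the mean CPM of the Veh libraries, with colours that stop at -1 and 1. *Tfeb*, *Ctsl* and *Atg7* are blue in the NR and NRRA libraries, *Rragd* is blue in all RA and NRRA libraries and red in NR, and *Rb1cc1*, *Ctsf* and *Ctss* are red in NR and NRRA.

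Among the transcription factors, *Tfeb*, the master regulator of lysosome genes, and its relative *Tfe3* fell in every treated group, while *Mitf* rose with RA. *Tfeb* (chr17:47737030-47792419, GRCm38) stood at 45.3 and 39.5 CPM for Veh, 24.1 and 20.9 for RA, 12.7 and 13.7 for NR, and 13.0 and 12.1 for NRRA. The Veh libraries were the highest, RA lay between, and the NR and NRRA libraries overlapped at the bottom. The log2 fold change against Veh was -0.93 ± 0.082 (SE) in RA, -1.68 ± 0.089 in NR and -1.75 ± 0.086 in NRRA, or 1.9-fold, 3.21-fold and 3.38-fold lower (adjusted p = 7.07e-10, 1.43e-14 and 1.56e-15). *Tfeb* fell with RA in complete medium, whereas NRRA and NR differed by -0.07 ± 0.1 on the log2 scale (adjusted p = 0.59).

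*Tfe3* read 87.7 and 85.2 CPM for Veh, 67.9 and 66.6 for RA, 71.1 and 71.6 for NR, and 56.5 and 52.9 for NRRA. The groups did not overlap and NRRA was the lowest. The log2 fold change in NRRA vs Veh was -0.66 ± 0.054 (adjusted p = 5.21e-11), beside -0.36 ± 0.054 in RA vs Veh and -0.28 ± 0.053 in NR vs Veh. *Mitf*, better known for pigment cells and osteoclasts, was the least abundant tested gene of the set per kilobase of exon, with 6.39 and 8.91 CPM for Veh, 12.0 and 12.1 for RA, 9.30 and 8.47 for NR, and 12.3 and 12.3 for NRRA. Its RA and NRRA libraries lay above all Veh and NR libraries. The log2 fold change was 0.66 ± 0.124 in RA and 0.68 ± 0.12 in NRRA (adjusted p = 9.66e-05 and 2.26e-05), and 0.21 ± 0.131 in NR (adjusted p = 0.198). The calls against Veh on the 3 factors held under each alternative processing tried.

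**Figure D3:**
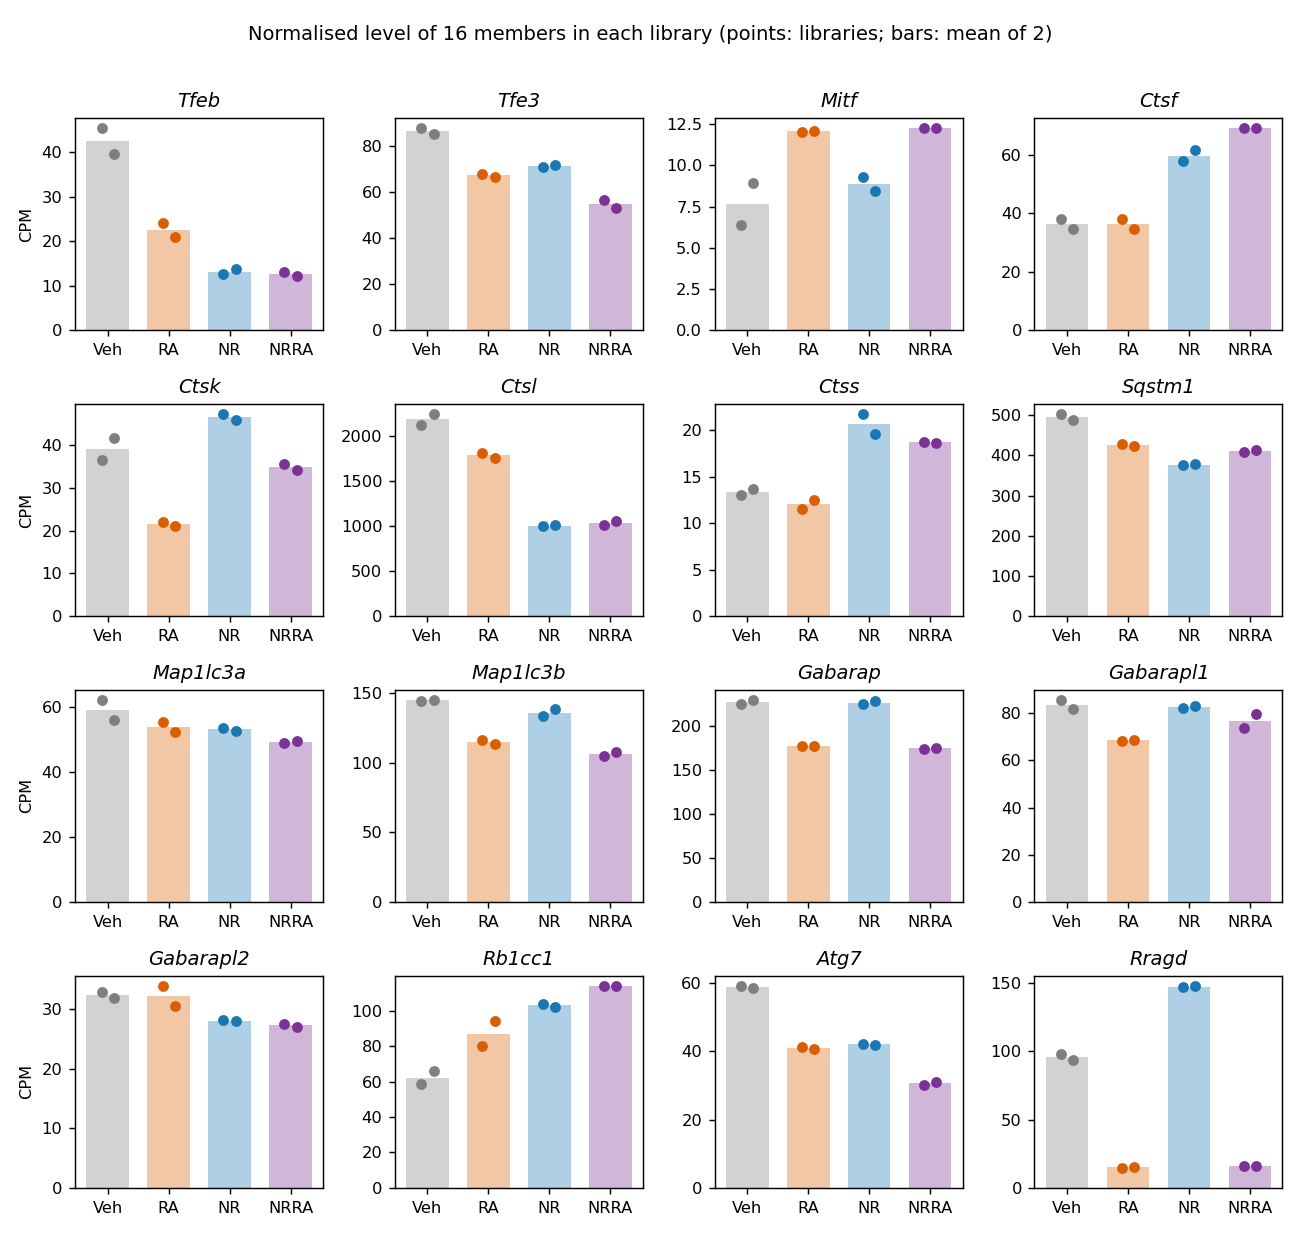
Level in CPM of 16 lysosome and autophagy genes in Veh, RA, NR and NRRA, with a point for each of the 2 libraries and a bar for their mean, all axes starting at 0. *Tfeb* drops from about 42.4 CPM in Veh to 12.6 in NRRA, *Rragd* is low in both groups with RA, and the 5 Atg8 family genes (*Map1lc3a*, *Map1lc3b*, *Gabarap*, *Gabarapl1*, *Gabarapl2*) have no bar in NR above that of Veh.

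The membrane proteins of the lysosome moved little and not together. *Lamp1*, a heavily glycosylated protein that lines the lysosome membrane, was among the most abundant genes of the set per kilobase of exon and fell in all 3 treatments, with log2 fold changes of -0.19, -0.13 and -0.20 in RA, NR and NRRA (SE 0.036 each). The NR call of *Lamp1* was lost without NR replicate 2 (adjusted p = 0.075). *Lamp2*, its relative with a role in autophagosome fusion, went the other way in NR, from 256 and 287 CPM in Veh to 357 and 354, a log2 fold change of 0.39 ± 0.046. Both NR libraries were above both Veh libraries. With the trend over GC content and gene length removed, the *Lamp2* value in NR came to 0.067 and no longer passed (largest adjusted p over the alternatives 0.105), and that in NRRA vs Veh, 0.20 ± 0.046 in the fit reported here, turned to -0.27. *Npc1*, which exports cholesterol from the lysosome, rose by 0.14 ± 0.049 in RA only among the comparisons with Veh, and that call was lost under 4 of 17 alternatives, among them without RA replicate 1 (adjusted p = 0.227). *Mcoln1*, the lysosomal calcium channel TRPML1, had log2 fold changes of -0.23 ± 0.062 in NR and -0.18 ± 0.06 in NRRA, which did not pass without NR replicate 2 (adjusted p = 0.0524) and without NRRA replicate 1 or Veh replicate 1 (adjusted p = 0.109 and 0.0769).

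The cathepsins, the proteases of the lysosome, split by treatment. *Ctsl* (cathepsin L, a cysteine protease; chr13:64359337-64370890, GRCm38) was the most abundant gene of the set by CPM, at 2130 and 2247 CPM for Veh, 1819 and 1761 for RA, 1000 and 1013 for NR, and 1014 and 1056 for NRRA. Veh was highest, RA lay between, and the NR and NRRA libraries stood lowest and close together. Relative to Veh, log2 fold changes were -0.29 ± 0.036 in RA, -1.12 ± 0.037 in NR and -1.08 ± 0.037 in NRRA (adjusted p = 3.2e-07, 6.11e-19 and 5.78e-19), and 0.04 ± 0.036 in NRRA vs NR (adjusted p = 0.41). An exon of another gene, *Gm47123* on the opposite strand, overlaps 26.9% of the exon bases of *Ctsl*, and the strand setting of the counting is not given in the sources used here.

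*Ctsf* (cathepsin F) rose with nutrient restriction. It read 38.1 and 34.6 CPM for Veh, 38.0 and 34.5 for RA, 57.9 and 61.8 for NR, and 69.2 and 69.1 for NRRA. Veh and RA overlapped fully, and NR and NRRA stood above both. The log2 fold change was 0.72 ± 0.065 in NR and 0.93 ± 0.064 in NRRA (adjusted p = 9.2e-10 and 1.75e-12), and -0.01 ± 0.069 in RA (adjusted p = 0.914).

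*Ctss* (cathepsin S, best known from antigen-presenting cells) read 13.0 and 13.7 CPM for Veh, 11.6 and 12.5 for RA, 21.7 and 19.6 for NR, and 18.8 and 18.7 for NRRA, with both groups in diluted medium above both groups in complete medium. Relative to Veh, log2 fold changes were 0.63 ± 0.09 in NR and 0.49 ± 0.089 in NRRA (adjusted p = 2.29e-06 and 3.4e-05). The 12 macrophage markers, all detected, summed to 297 and 294 CPM for Veh, 263 and 241 for RA, 340 and 335 for NR, and 316 and 328 for NRRA, the same order of media, and their part in the *Ctss* result was not tested.

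*Ctsk* (cathepsin K, a collagen-degrading protease of osteoclasts and fibroblasts) responded to RA and to NR in opposite directions. It read 36.5 and 41.5 CPM for Veh, 21.9 and 21.1 for RA, 47.2 and 45.7 for NR, and 35.5 and 34.0 for NRRA. RA was far below all other libraries and NR above them. The change on the log2 scale was -0.86 ± 0.074 in RA and 0.25 ± 0.067 in NR (adjusted p = 4.88e-10 and 0.00312), and the NRRA value of -0.16 ± 0.067 lost its call under 10 alternatives (adjusted p up to 0.535). The summed fibroblast markers given above were likewise lowest in RA and highest in NR, and their part in the *Ctsk* result was not tested.

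Of the other cathepsins, *Ctsb* (cathepsin B) rose in RA (0.13 ± 0.037, lost without RA replicate 1) and fell in NR (-0.24 ± 0.037). *Ctsb* also rose in NRRA, a call lost without NRRA replicate 2 (log2 value 0.085 there). *Ctsa* (cathepsin A, the protective protein of the sialidase) fell in RA (-0.40 ± 0.041) and NRRA (-0.21 ± 0.041). *Ctsz*, a carboxypeptidase, fell in RA (-0.22 ± 0.044), NR (-0.12) and NRRA (-0.19 ± 0.043), and its NR call was lost without any of several libraries. *Ctsd* (cathepsin D, an aspartic protease) fell in RA only among the comparisons with Veh (-0.24 ± 0.046). *Ctsd* shares 34.4% of its exon bases with *Gm49369* on the same strand, so its reads cannot be assigned with certainty. The summed level of the 8 cathepsins was 4382 and 4416 CPM for Veh, 3974 and 3787 for RA, 3074 and 3106 for NR, and 3222 and 3303 for NRRA.

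The sugar- and lipid-degrading enzymes and their helpers fell with RA, 7 of the 8 measured: *Gla* (alpha-galactosidase), *Gaa* (acid alpha-glucosidase), *Hexa* (a subunit of beta-hexosaminidase), *Gusb* (beta-glucuronidase), *Npc2* (a lumenal cholesterol carrier), *Psap* (the precursor of the saposins) and *Lipa* (acid lipase). Their log2 fold changes in RA vs Veh lay between -0.41 (*Npc2*) and -0.19 (*Lipa*), and the *Lipa* call was lost without RA replicate 2 (adjusted p = 0.18). *Neu1*, the sialidase, had a value of 0.04 ± 0.083 (adjusted p = 0.764). Of all tested genes, 23.4% fell in RA vs Veh. In a list of 28 other lysosomal hydrolases and activators, 12 fell and 6 rose in RA vs Veh (42.9% and 21.4%). In NR vs Veh, *Hexa* (0.28 ± 0.048) and *Gaa* (0.16 ± 0.043) rose, *Gusb* (-0.29 ± 0.054) and *Psap* (-0.12 ± 0.037) fell, and 4 did not pass. The *Psap* call was lost without either NR library or Veh replicate 1 (adjusted p = 0.0975 to 0.176). In NRRA vs Veh, *Gaa* rose (0.18 ± 0.042) and 5 fell, *Gusb* the most (-0.53 ± 0.054). Of these 5 falls, only those of *Gusb* and *Npc2* held under every alternative. *Psap* had the highest Veh level of the set per kilobase of exon, 399 CPM per kilobase.

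The subunits of the V-ATPase, the proton pump that acidifies the lysosome, were lower after nutrient restriction. Of the 3 tested subunits of the set, *Atp6v1a* and *Atp6v1h*, of the part that hydrolyses ATP, fell in NR (-0.29 ± 0.049 and -0.30 ± 0.054) and in NRRA (-0.33 ± 0.048 and -0.25 ± 0.053). With the trend over GC content and gene length removed, the *Atp6v1h* values came to -0.575 and -0.655. *Atp6v0d1*, of the membrane part, fell in RA (-0.26 ± 0.049) and NRRA (-0.31 ± 0.049) and had a value of -0.11 ± 0.049 in NR (adjusted p = 0.0608). A list of 14 other subunits and accessory proteins of the pump was measured as well, and 13 of them fell and 1 rose in NR, as in NRRA. Over all 17, 15 fell and 1 rose in NR vs Veh and 16 fell and 1 rose in NRRA vs Veh, against 7 and 1 in RA vs Veh. As shares, 88.2%, 94.1% and 41.2% of the 17 fell in NR, NRRA and RA, where 22.2%, 28.7% and 23.4% of all tested genes did. The median log2 fold change over the 17 was -0.252 in NR, -0.369 in NRRA and -0.12 in RA. The count that fell was 11 to 16 in NR and 12 to 16 in NRRA over the 17 alternatives, and the 7 in RA became 11 with the trend over GC content and gene length removed.

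The subunits named outside the set were chosen by their values. *Atp6v0a1* was named because it passed at 2-fold in NRRA vs Veh, and *Tcirg1* was chosen after its values were seen. *Atp6v0a1*, a proton-channel subunit, changed most, from 117 and 110 CPM in Veh to 63.8 and 61.8 in NR and 53.2 and 56.5 in NRRA, with 88.1 and 80.1 in RA. The 4 groups did not overlap. Its log2 fold change was -0.85 ± 0.057 in NR and -1.05 ± 0.057 in NRRA (adjusted p = 2.27e-12 and 1.38e-14). The one subunit that rose, *Tcirg1*, is the form of that same subunit used by osteoclasts, and its log2 fold change was 0.13 ± 0.051 in NR, just inside the threshold (adjusted p = 0.0488), and 0.39 ± 0.05 in NRRA (adjusted p = 2.36e-07), and the NR call was lost under 10 of 17 alternatives.

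**Figure D4:**
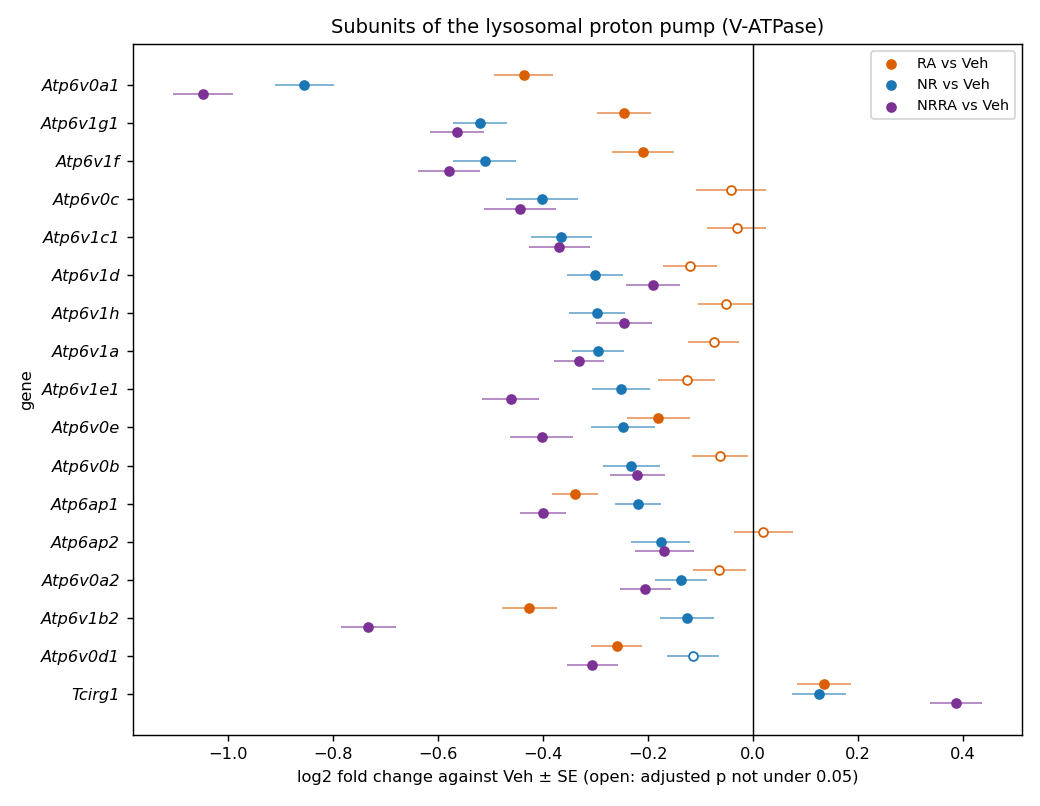
Log2 fold change against Veh (horizontal axis, bars show the SE) of 17 V-ATPase subunits and accessory proteins in RA, NR and NRRA, with filled points for an adjusted p under 0.05 and open points otherwise. In NR and NRRA, 16 of the 17 points lie left of 0 and *Tcirg1* lies right of it, and *Atp6v0a1* reaches -1.05 in NRRA.

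*Sqstm1* and the Atg8 family, whose proteins mark autophagosomes, did not rise in any comparison with Veh. *Sqstm1* encodes p62, the receptor that links cargo to the growing membrane and is itself degraded by autophagy. Its mRNA stood at 503 and 487 CPM for Veh, 428 and 423 for RA, 375 and 378 for NR, and 409 and 414 for NRRA. The groups did not overlap and NR was the lowest. Relative to Veh, log2 fold changes were -0.22 ± 0.038 in RA, -0.39 ± 0.038 in NR and -0.27 ± 0.038 in NRRA (adjusted p = 4.13e-05, 3.01e-09 and 1.16e-06). *Mrnip* on the opposite strand overlaps 17.3% of the exon bases of *Sqstm1*, so its counts are less certain too.

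The Atg8 proteins are joined to lipid on the autophagosome membrane. *Map1lc3b* (LC3B, the usual marker) read 144 and 145 CPM for Veh, 116 and 114 for RA, 133 and 138 for NR, and 105 and 108 for NRRA, so that both groups with RA were below both without. Its log2 fold change was -0.33 ± 0.047 in RA and -0.45 ± 0.046 in NRRA (adjusted p = 1.97e-06 and 5.31e-09), and -0.09 ± 0.046 in NR (adjusted p = 0.121). *Gabarap* had the same order, with 225 and 230 CPM for Veh, 178 and 177 for RA, 225 and 229 for NR, and 175 and 175 for NRRA. Veh and NR overlapped, as the values show, with a log2 difference of -0.004 ± 0.042 (adjusted p = 0.953), and RA vs Veh was -0.36 ± 0.042 (adjusted p = 1.24e-07).

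*Gabarapl1* read 85.6 and 81.6 CPM for Veh, 68.4 and 68.6 for RA, 82.3 and 82.8 for NR, and 73.7 and 79.7 for NRRA, and the RA libraries stood lowest (log2 fold change -0.29 ± 0.055, adjusted p = 0.000116). The call for NRRA vs Veh (-0.12 ± 0.053) was lost under 14 of 17 alternatives. *Gabarapl2* read 33.0 and 32.0 CPM for Veh, 34.0 and 30.6 for RA, 28.2 and 28.0 for NR, and 27.6 and 27.0 for NRRA, lower in both restricted groups than in any library in complete medium. Its log2 fold change was -0.21 ± 0.071 in NR and -0.25 ± 0.069 in NRRA (adjusted p = 0.0188 and 0.00301), and the NR call was lost without either NR library or Veh replicate 1 (adjusted p = 0.104 to 0.13). *Map1lc3a* read 62.2 and 56.0 CPM for Veh, 55.3 and 52.3 for RA, 53.5 and 52.7 for NR, and 48.9 and 49.5 for NRRA, with the NRRA libraries lowest. Its log2 fold change was -0.26 ± 0.06 in NRRA (adjusted p = 0.000466), and the call for NR (-0.16 ± 0.061) was lost under 12 of 17 alternatives. Transcripts of other genes hold 23.1% of the 50-base stretches of *Gabarapl1* and 12.2% of those of *Gabarapl2*, so these counts are less certain.

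The ULK1 complex, the kinase that starts autophagy, had more genes that rose than fell after nutrient restriction. Of its 4 genes, 3 rose in NR and in NRRA (*Ulk2*, *Rb1cc1* and *Atg13*) and 0 fell. Of all tested genes, 21.7% rose in NR and 30.1% in NRRA. *Rb1cc1* encodes FIP200, the scaffold of the complex. It read 58.5 and 65.9 CPM for Veh, 80.2 and 94.1 for RA, 104 and 102 for NR, and 114 and 114 for NRRA. The groups did not overlap, and Veh was the lowest. The log2 fold changes were 0.50 ± 0.066 in RA, 0.73 ± 0.065 in NR and 0.88 ± 0.064 in NRRA (adjusted p = 8.43e-07, 6.31e-10 and 6.1e-12). With the trend over GC content and gene length removed, the RA value fell to 0.073 and no longer passed (adjusted p up to 0.225), and those for NR and NRRA shrank to 0.265 and 0.243 and still passed.

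*Ulk2*, a kinase of the complex, rose by 0.26 ± 0.063 in RA, 0.29 ± 0.063 in NR and 0.49 ± 0.06 in NRRA. *Atg13*, its adaptor, fell in RA (-0.15 ± 0.059) and rose in NR (0.28 ± 0.057) and NRRA (0.17 ± 0.056). Its RA call was lost without any 1 of 6 libraries (adjusted p up to 0.284) and its NRRA call without NRRA replicate 2 or Veh replicate 2 (adjusted p = 0.0755 and 0.059). *Ulk1* itself fell in RA (-0.30 ± 0.057) and had values of 0.08 ± 0.056 in NR and 0.09 ± 0.055 in NRRA (adjusted p = 0.278 and 0.167). All 4 rose in NRRA vs RA, with log2 fold changes between 0.23 and 0.39, where 20.9% of all tested genes rose.

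The lipid kinase complex that acts next had no gene that rose against Veh. *Atg14*, which directs the complex to autophagy, fell in both groups with RA (-0.53 ± 0.06 in RA and -0.46 ± 0.058 in NRRA) and had a value of 0.01 ± 0.058 in NR (adjusted p = 0.868). *Uvrag*, of the alternative complex, fell in RA (-0.28 ± 0.065), NR (-0.21 ± 0.064) and NRRA (-0.29 ± 0.063), with the NR call lost without NR replicate 2 or Veh replicate 1 (adjusted p = 0.214 and 0.0883). *Becn1* (Beclin 1) had values from -0.06 to 0.07, none of which passed. *Becn1* shares 43.9% of its exon bases with *Cntd1* on the opposite strand.

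The enzymes that conjugate the Atg8 proteins were led by *Atg7*, the activating enzyme of the pathway, which fell with each treatment and most with both. *Atg7* read 59.2 and 58.6 CPM for Veh, 41.3 and 40.8 for RA, 42.2 and 42.0 for NR, and 30.3 and 31.1 for NRRA. RA and NR stood close together, well below Veh and above NRRA. Relative to Veh, log2 fold changes were -0.52 ± 0.058 in RA, -0.48 ± 0.058 in NR and -0.94 ± 0.058 in NRRA (adjusted p = 4.6e-08, 1.16e-07 and 2.28e-13). NRRA was also below each single treatment, by -0.42 ± 0.06 against RA and -0.45 ± 0.059 against NR.

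*Atg5* (-0.24 ± 0.062) and *Atg16l1* (-0.21 ± 0.052), which with *Atg12* form the complex that places Atg8 on the membrane, fell in NRRA vs Veh and in no other comparison with Veh. Neither of these NRRA calls held under every alternative. *Atg12* fell in NR (-0.26 ± 0.055). *Atg3*, the conjugating enzyme, rose in NR (0.21 ± 0.066), a value that turned to -0.016 with the trend over GC content and gene length removed and did not pass without NR replicate 1 (adjusted p = 0.0896).

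Among the genes for growth of the phagophore, the early autophagic membrane, the 2 WIPI genes of the set diverged. *Wipi1* went from 87.2 and 88.9 CPM in Veh to 64.6 and 60.7 with RA, 120 and 120 with NR, and 92.4 and 95.5 with NRRA, the last close to Veh, so its log2 fold change was -0.49 ± 0.053 in RA and 0.45 ± 0.05 in NR. *Wipi2* instead fell in all 3 treatments (-0.22 ± 0.046, -0.44 ± 0.047 and -0.44 ± 0.046 in RA, NR and NRRA). *Atg2a*, a lipid transfer protein, fell in RA (-0.34 ± 0.049) and NRRA (-0.33 ± 0.048). *Atg9a*, a membrane scramblase that shares 32.6% of its exon bases with *Gm29253* on the same strand, had values between -0.07 and 0.12, none of which passed.

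The largest change in the set was that of *Rragd* (chr4:32983037-33022180, GRCm38), which encodes RagD, a Rag GTPase that reports amino acid supply to mTORC1 at the lysosome. *Rragd* read 97.8 and 93.9 CPM for Veh, 14.5 and 15.5 for RA, 147 and 148 for NR, and 15.8 and 15.8 for NRRA. NR was the highest, Veh next, and all 4 libraries with RA lay far below with RA and NRRA close to each other. With RA *Rragd* was 6.37-fold lower in complete medium (log2 fold change -2.67 ± 0.064, adjusted p = 3.04e-21) and 9.34-fold in diluted medium (-3.22 ± 0.059, adjusted p = 5.79e-24). In NR it was 1.54-fold higher than in Veh (0.62 ± 0.05, adjusted p = 8.49e-11), whereas NRRA vs RA was 0.07 ± 0.077 (adjusted p = 0.517). These calls held under each alternative processing tried. Markers of undifferentiated spermatogonia moved as well. Of the 9, all detected, 8 fell in RA and 8 in NRRA (edgeR, adjusted p under 0.05), where 23.4% and 28.7% of all tested genes did. In NR, 4 of these markers rose and 3 fell, against 21.7% and 22.2% of all tested genes. Summed, they stood at 868 and 802 CPM for Veh, 373 and 370 for RA, 827 and 850 for NR, and 220 and 214 for NRRA. One of them, *Zbtb16*, chosen after its values were seen, had the same order of groups as *Rragd*, with 171 and 156 CPM for Veh, 31.8 and 31.8 for RA, 239 and 249 for NR, and 35.7 and 35.2 for NRRA. Another marker, *Ret*, also chosen after its values were seen, had a different order. It read 245 and 221 CPM for Veh, 53.1 and 51.7 for RA, 185 and 193 for NR, and 32 and 32 for NRRA. The part of the shift in these markers in the *Rragd* result, and in the other RA results, was not tested. *Rragc*, its close relative, fell in RA (-0.20 ± 0.056), NR (-0.20 ± 0.056) and NRRA (-0.31 ± 0.056), the first not without RA replicate 2 (adjusted p = 0.0872) and the second not without NR replicate 1 (adjusted p = 0.129). *Flcn* (folliculin, which acts on RagC and RagD) fell in RA (-0.20 ± 0.057), though not without Veh replicate 1 (adjusted p = 0.0869).

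**Figure D5:**
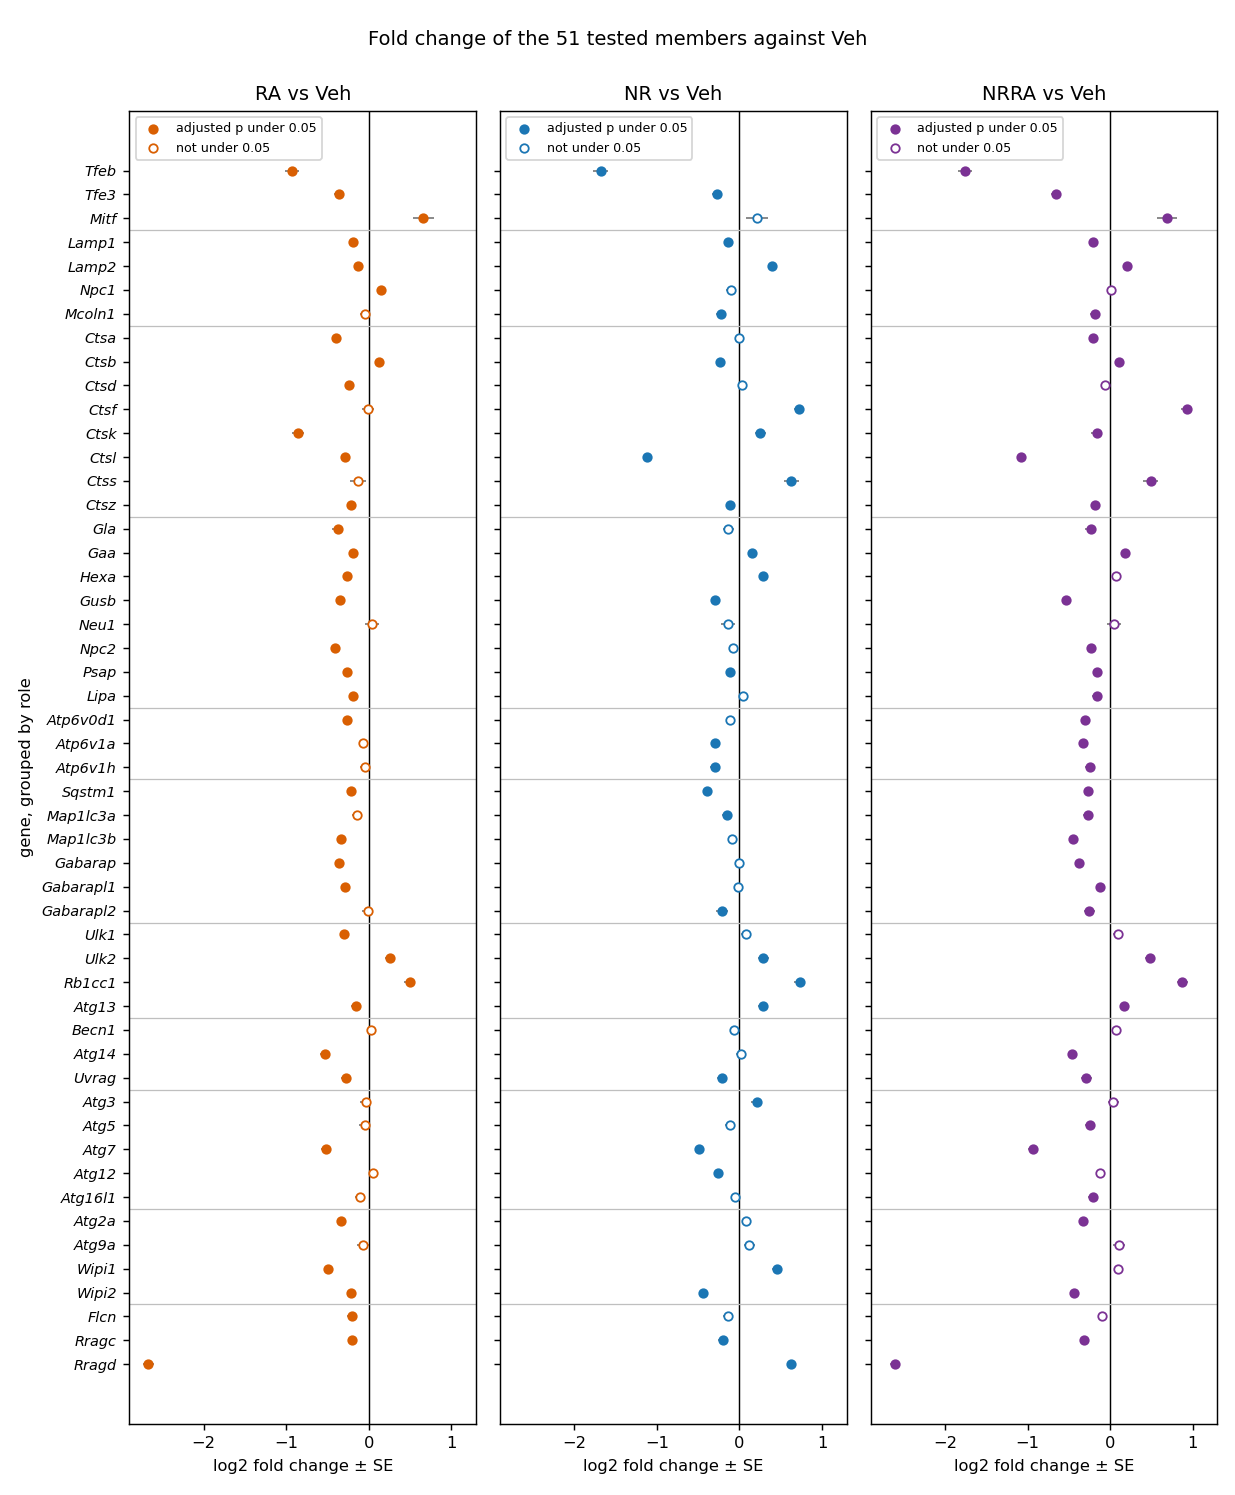
Log2 fold change against Veh of the 51 tested lysosome and autophagy genes (rows, grouped by role; bars show the SE) in RA, NR and NRRA, with filled points for an adjusted p under 0.05. Most points lie within 0.5 of 0, *Rragd* lies at -2.67 in RA and -2.60 in NRRA, and *Tfeb* lies at -1.68 in NR and -1.75 in NRRA.

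RA acted differently in complete and in diluted medium on 15 of the 51 genes. The interaction, the difference of the log2 fold changes NRRA vs NR and RA vs Veh, was above 0 for 13 genes and below 0 for 2 (edgeR, adjusted p under 0.05), against 6.37% and 6.58% of all genes. At a size of 2-fold or more 0 genes of the set were called and 2.24% of all genes. The largest value was that of *Tfeb*, 0.86 ± 0.129 (adjusted p = 3.18e-05), which fell with RA in complete medium and did not detectably do so in diluted medium. *Ctsk* (0.44 ± 0.098), *Sqstm1* (0.35 ± 0.054) and *Ctsl* (0.33 ± 0.051) followed, and *Rragd* (-0.55 ± 0.092) and *Rb1cc1* (-0.35 ± 0.089) were the 2 below 0. Only *Tfeb*, *Ctsk*, *Ctsl*, *Sqstm1* and *Rragd* passed under every alternative. The 13 became 4 without NR replicate 1, 4 without NR replicate 2, 7 without RA replicate 2 and 7 without NRRA replicate 1, and the 2 became 1 without RA replicate 2.

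A wider list of 122 other lysosome, autophagy and nutrient sensing genes, of which 121 were tested, had more genes that fell than rose in each treatment. Of the 121, 20 rose and 47 fell in RA vs Veh, 27 rose and 42 fell in NR vs Veh, and 29 rose and 51 fell in NRRA vs Veh. The shares that fell, 38.8%, 34.7% and 42.1%, stood beside 23.4%, 22.2% and 28.7% of all tested genes, and the shares that rose, 16.5%, 22.3% and 24%, beside 19.8%, 21.7% and 30.1%. The other lysosomal hydrolases and activators were an exception in NR vs Veh, with 12 of 28 that rose (42.9%) and 4 that fell (14.3%). Of the 32 other autophagy genes, 9 rose and 9 fell in NR (28.1% each), and 9 rose (28.1%) and 13 fell (40.6%) in NRRA, so that both shares in NR and the share that rose in NRRA lay near those of all genes. Of the 19 other membrane and sorting genes tested, 3 rose and 6 fell in NR (15.8% and 31.6%), and of the 28 other genes of mTORC1 nutrient sensing, 2 rose and 10 fell (7.14% and 35.7%).

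Few of these reached 2-fold. *Acp5*, the tartrate-resistant acid phosphatase of osteoclasts, read 15.4 and 11.7 CPM for Veh, 33.4 and 31.2 for RA, 19.8 and 20.8 for NR, and 47.5 and 43.3 for NRRA, a log2 fold change of 1.74 ± 0.09 in NRRA. The 4 groups did not overlap. *Atg9b*, the second *Atg9* gene, fell in NR (-1.63 ± 0.194) and NRRA (-1.12 ± 0.173) and its CPM was 8.12 and 7.04 in Veh and 2.46 and 2.43 in NR. *Optn*, an autophagy receptor, fell in NRRA (-1.14 ± 0.097), and *Tfec*, the remaining relative of *Tfeb*, fell in NR (-1.14 ± 0.221) from 4.41 and 3.54 CPM in Veh to 1.73 and 1.86.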

How the data were processed

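RNA-seq of whole SSC cultures on feeder cells was analysed in 4 groups of 2 libraries, grouped by the sample labels. The authors deposited 1 table of counts, whole numbers of reads per gene and library without normalization. Per the submitters' processing notes the reads were mapped with STAR 2.6.1c to mm10 and counted with featureCounts 1.6.4; the gene annotation and strand setting of the counting are not given in the sources used here. The study names a stranded kit, but without that setting reads of a gene and of an overlapping partner cannot be told apart. The share of exon bases that overlaps another gene, taken from GENCODE M21 (which held 55154 of the 55421 identifiers), is therefore given beside some genes. Among genes given without it, the share was 17.6% for *Uvrag*, 17.4% for *Ctsa*, and 12.8% for *Ctsb* and *Hexa*. Level per kilobase was computed over the union of a gene's annotated exons.

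Counts were filtered by group with edgeR's filterByExpr, scaled by TMM and fitted with edgeR 4.0.16 (R 4.3.3), a quasi-likelihood model with 1 coefficient per group over all 8 libraries. The 5 pairwise comparisons and the interaction were tested with its F test and Benjamini-Hochberg adjustment over all 20477 tested genes, and a gene was called at an adjusted p under 0.05. The SE of a log2 fold change is its size divided by the square root of F. The test was tried on simulated data with known changes before use. In simulated NRRA vs Veh it recovered 77 of 100 genes changed 1.5-fold, with 11 false calls. Changes under 1.5-fold, the size of most calls here, were not simulated.

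Genes given with all library values are those past an adjusted p of 0.05 and 1.5-fold in RA, NR or NRRA vs Veh, and always the *Tfeb* family genes, *Sqstm1* and the Atg8 family; library values of *Lamp2* and *Wipi1*, outside this rule, were added after they were seen. The remaining genes of the set are given by role with their fold changes. Other pathway genes are named where they passed at 2-fold in NR or NRRA vs Veh. The set and all lists were chosen with earlier results of these data known. Alternatives were DESeq2 1.42.0, other scalings, no filter, only the libraries compared, a trend over GC content and gene length removed, a replicate block and leaving out each library. Promoter windows are RefSeq's, on GRCm38.p6. Figures were drawn with matplotlib 3.10.9. The replicate libraries differed by more than sampling noise (chi-square per gene 3.93 for Veh, 2.12 for RA, 1.58 for NR and 1.73 for NRRA).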

Additional observations from a re-analysis of the deposited data

Results flagged for a closer look

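The interaction test, which asks whether the RA effect differed between complete and diluted medium, singled out 15 genes of the set (edgeR, adjusted p under 0.05). The log2 value was 0.86 for *Tfeb*, 0.44 for *Ctsk*, 0.35 for *Sqstm1*, 0.33 for *Ctsl*, 0.31 for *Ulk1*, 0.27 for *Gla*, 0.25 for *Npc2* and 0.25 for *Flcn*. It was 0.22 for each of *Ctsb*, *Gaa*, *Psap* and *Wipi2*, and 0.20 for *Ctsa*. It was -0.35 for *Rb1cc1* and -0.55 for *Rragd*. For 10 of the 15 the call was lost when 1 library was left out, and for *Rb1cc1* that library was RA replicate 2 (log2 value -0.221 without it, adjusted p = 0.158, and up to 0.346 over all alternatives). With 2 libraries per group, a library that stands apart within its group could not be tested for.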

How the results depend on the processing

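The 2 libraries per group limit the precision of small changes. Of the calls against Veh, 28 of 37 in RA, 21 of 31 in NR and 27 of 40 in NRRA held in direction and passed under each of the 17 alternatives. At least 2-fold, the counts of genes that rose and fell were 0 and 1 in RA, 0 and 2 in NR, 0 and 3 in NRRA, 0 and 0 in NRRA vs RA, 0 and 1 in NRRA vs NR, and 0 and 0 for the interaction. Scaled by library totals, 16 rose in NRRA vs Veh and 13 in NRRA vs NR, and with DESeq2 3 rose in NRRA vs NR. Leaving out 1 library gave 3 to 5 that rose in RA vs Veh, 12 to 21 that fell in NR vs Veh, 3 to 9 that rose in NRRA vs NR, and 4 to 14 above and 1 to 3 below 0 for the interaction; a left-out library also means fewer samples.

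With a trend over GC content and gene length removed, 3 rose in RA vs Veh, also with the replicate block. In both of these fits 29 of 306 gene values changed sign, 23 of them called neither there nor in the reported fit. The 6 others, with the replicate block in parentheses, were *Lamp2* -0.27 (-0.27), *Npc1* -0.17 (-0.17) and *Atg3* -0.311 (-0.311) in NRRA vs Veh, *Lipa* -0.15 (-0.149) and *Atg3* -0.016 (-0.015) in NR vs Veh, and *Atg12* -0.142 (-0.143) in RA vs Veh. The cause was not tested. Of the 177 called values, 17 became over 1.5 times larger and 18 over 1.5 times smaller with the trend removed, and 9 and 48 with library totals. In that fit 3686 of all genes rose and 6021 fell in NR vs Veh, against 4443 and 4542 without the trend. Same-numbered replicates did not deviate together (correlations across genes of -0.0334 to 0.0225), so the numbers pair nothing; the replicate block alone gave 19 that fell in NR vs Veh and moved no count of the set by over 1.5 times.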
